A study of Homo sapiens with 6 samples.

Results

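The expression of DUSP3 and 8 related genes was examined in Huh7 cells that received hsa_circ_0098181. The set of 9 genes, of 50868 in the count table, holds 7 dual-specificity phosphatases (DUSP1, DUSP3, DUSP4, DUSP5, DUSP6, DUSP10 and DUSP16) and 2 of the MAP kinases that such enzymes act on (MAPK3 and MAPK14). They were picked by gene symbol. DUSP3 was chosen by its measured difference in the comparison described here, as the gene that ranked just below the called ones, so its difference is given as a description only. The other 8 were listed around it by family and role. All 9 passed the filter on low counts.

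Huh7 cells are a line of human hepatoma origin. Cells of the overexpression group were transfected by Lipofectamine 2000 with a plasmid carrying hsa_circ_0098181, a circular RNA made from exons of SOX5, and those of the control group received the control plasmid. RNA was taken after 48 hours, with 3 libraries in each group. Both groups carry a plasmid and the transfection reagent, and transfection was transient, so the values average over all cells of a dish: a small change in many cells and a large change in few cannot be told apart. No label says whether replicates were separate cultures, and p-values measure the spread between these libraries, which may be technical.

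Gene counts per library ran from 11130902 to 14138262. SOX5, the host gene of the circle, stood at 1905, 2396 and 2012 CPM (counts scaled to library size) with overexpression and at 41.8, 34.4 and 31.3 CPM in the controls, as labelled. Counts per gene do not part reads of SOX5 exons carried by the plasmid from those of the cell's own SOX5 transcripts. All 11 hepatocyte and hepatoma markers were above 10 CPM, and their summed level was 33179 to 35767 CPM with overexpression and 31978 to 37754 CPM in the controls. Of 12 markers of immune, stromal and endothelial cells, LYZ (mean 473 CPM) and PECAM1 (mean 54.3 CPM) were above 10 CPM and CDH5 was at 0 counts. Correlations between libraries were 0.979 to 0.987 within a group and 0.976 to 0.987 across groups, over genes that are not independent replicates. By the chi-square of counts per degree of freedom, control replicate 1 differed most from its group. It had 19.1 and 20.9 against control replicates 2 and 3, which had 10.6 between them. Pairs of overexpression libraries had 10.1 to 13.6. Mitochondrial reads made up 9.29% of control replicate 1 and 6.32% to 7.04% of the other libraries.

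MAP kinases relay signals from growth factors and stress, and are switched on when a threonine and a neighbouring tyrosine in their activation loop are phosphorylated. Dual-specificity phosphatases remove both phosphates. The typical MAP kinase phosphatases dock on their kinase through a separate domain, and several of their transcripts are induced by the very pathway they end, which makes them feedback inhibitors. Atypical members such as DUSP3 lack that docking domain.

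DUSP3, also called VHR, dephosphorylates ERK and JNK kinases as well as other tyrosine-phosphorylated proteins. The gene (ENSG00000108861) spans 43766121 to 43778988 of chromosome 17, minus strand (GRCh38). Read counts of 906, 842 and 857 were found with overexpression and of 317, 361 and 465 in the controls. On the CPM scale these were 64.1, 60.1 and 69.2 against 29.3, 30.7 and 38.3. Every overexpression library lay above every control library, and the gap between the groups was wider than the range within either. The means were 64.5 ± 4.59 CPM and 32.8 ± 4.83 CPM (SD, n = 3 each), a 1.97-fold difference, or 0.98 ± 0.13 (SE) as log2 fold change.

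These values chose DUSP3, which ranked 7 among 15055 genes tested by edgeR's quasi-likelihood test. PBX2, just inside the threshold, had an edgeR adjusted p of 0.0483 and a 1.83-fold difference, and SUMO3, the next above it, had 0.0395 and 1.91-fold. DUSP3 had an edgeR adjusted p of 0.0985. HSPA6 and CH17-140K24.4 followed with 0.192 and 0.2996 and log2 fold changes of -3.24 and -2.77, both at under 4 CPM in every library. The difference of DUSP3 was larger in log2 terms than those of PBX2 (0.87) and SUMO3 (0.93) with a larger standard error (0.13 against 0.10 each). The call of DUSP3 differed with the method, on the same contrast that chose it. DESeq2, which called 0.186% of genes, gave DUSP3 an adjusted p of 3.68e-07, and edgeR without the filter on low counts gave 0.0106. When single libraries were left out, the log2 fold change of DUSP3 stayed between 0.903 and 1.10, with edgeR adjusted p from 0.0678 to 0.358.

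The genes on either side of DUSP3 were not called. MPP3, at a distance of 21811 bases, had a log2 fold change of 0.53 ± 0.28 (SE; edgeR adjusted p 0.797). MPP2, at 96369 bases, had -0.020 ± 0.19 (SE; edgeR adjusted p 0.986). No other gene tested lay within 100000 bases, and no gene of the table overlapped DUSP3. Of its distinct transcript stretches of 31 bases, 5.16% occurred in transcripts of other genes, with at most 1.12% in any single gene. Reads from those stretches could be counted to either gene.

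**Figure D1:**
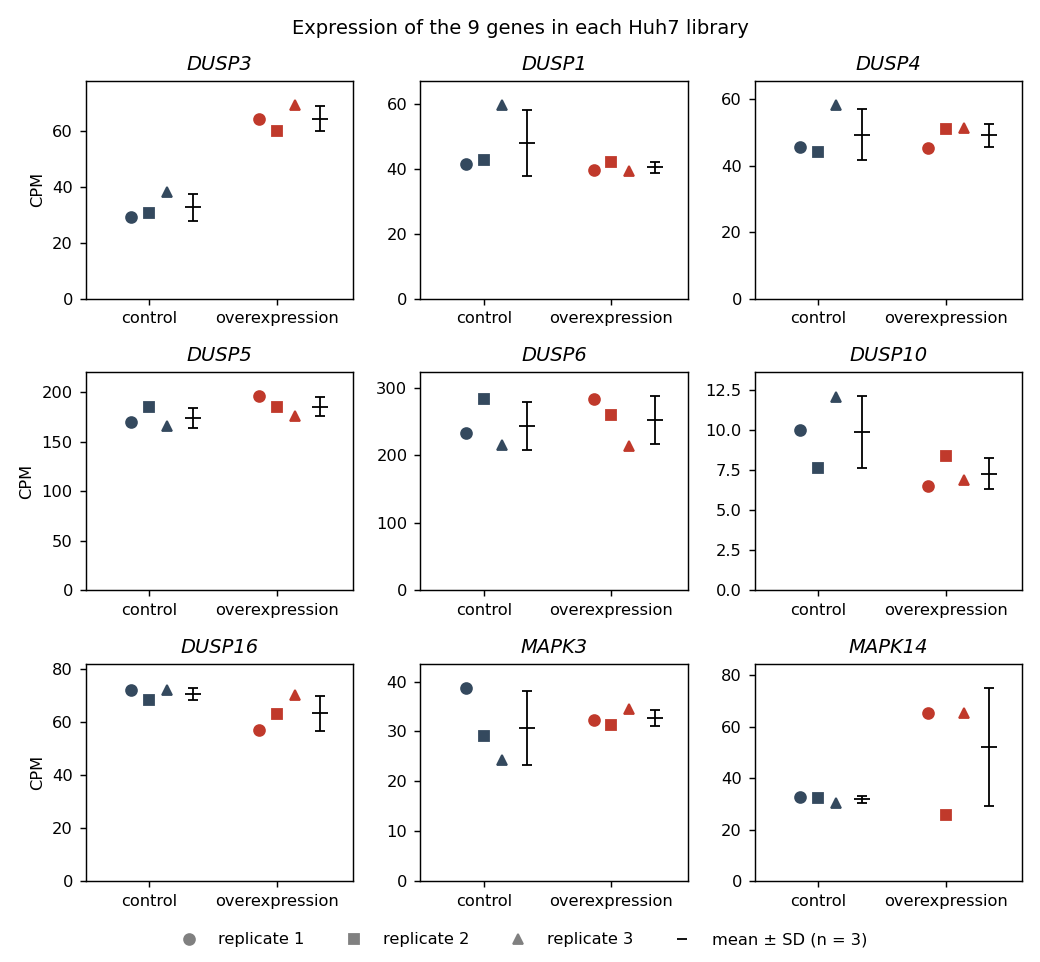
Normalised expression (CPM, linear axes from 0) of each of the 9 genes in the 3 control and the 3 overexpression libraries. Symbols are replicates, and bars give the mean ± SD (n = 3). DUSP3 separates the groups (60.1 to 69.2 against 29.3 to 38.3 CPM), MAPK14 splits the overexpression group (65.4, 25.7 and 65.4 CPM), and the other 7 genes overlap between groups.

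For the 8 other genes, edgeR called 0 at an adjusted p under 0.05, against 0.0399% of all genes tested. MAPK14 was the only one of them with an unadjusted p under 0.05, where 5.50% of all genes passed. The groups overlapped for all 8, while 12.9% of all genes tested had no overlap. DESeq2 also called none of the 8.

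DUSP1, DUSP4, DUSP5 and DUSP6 encode the phosphatases whose transcripts respond most directly to ERK signalling and to stress. DUSP6 is a cytoplasmic phosphatase selective for ERK. Its levels were 283, 259 and 214 CPM in the overexpression libraries and 232, 283 and 214 CPM in the controls. The highest and the lowest values of both groups nearly coincided. Its log2 difference was 0.051 ± 0.14 (SE), with a 95% interval from -0.26 to 0.37 (edgeR adjusted p 0.944). The value turned to -0.040 without overexpression replicate 1 and to -0.031 without control replicate 3. A transcript of the other strand (ENSG00000274021) overlaps DUSP6 (ENSG00000139318, chromosome 12 at 89347232 to 89353271, minus strand). It held 23 counts over all libraries. With both strands searched, 38.5% of the distinct 31-base stretches of DUSP6 transcripts occurred in it. Reads of the pair cannot be parted since the handling of strand is not stated.

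DUSP5, a nuclear phosphatase that binds and inactivates ERK, was measured at 196, 185 and 176 CPM with overexpression and 170, 185 and 166 CPM in the controls. These values overlapped. The log2 difference was 0.094 ± 0.088 (SE), and the 95% interval from -0.11 to 0.29 leaves room for no more than a 1.23-fold rise or a level 0.929 times that of the controls (edgeR adjusted p 0.833). This was the narrowest interval of the 9 genes. DUSP5 (ENSG00000138166) spans 110497838 to 110511544 of chromosome 10, plus strand.

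DUSP1, the founding nuclear phosphatase of the family and an immediate early gene, had 39.8, 42.2 and 39.3 CPM with overexpression and 41.3, 42.6 and 59.6 CPM in the controls. Control replicate 3 stood above the other 5 libraries, which lay within 39.3 to 42.6 CPM. Its log2 fold change of -0.24 (standard error 0.15, edgeR adjusted p 0.797) became -0.053 without that library. DUSP1 (ENSG00000120129) spans 172768090 to 172771195 of chromosome 5, minus strand.

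DUSP4, a nuclear phosphatase for ERK and JNK, had 45.2, 50.9 and 51.3 CPM with overexpression and 45.6, 44.0 and 58.1 CPM in the controls, with control replicate 3 again the highest of all. The log2 difference was -0.0041 ± 0.13 (SE), with a 95% interval from -0.30 to 0.29 (edgeR adjusted p 0.995), and it became 0.13 without control replicate 3. DUSP4 (ENSG00000120875) spans 29333064 to 29350668 of chromosome 8, minus strand.

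DUSP10 and DUSP16 prefer the stress kinases JNK and p38 over ERK. DUSP10 had 6.51, 8.35 and 6.87 CPM in the overexpression libraries and 9.97, 7.58 and 12.0 CPM in the controls. Its groups overlapped through overexpression replicate 2 and control replicate 2. Its log2 difference was -0.44 ± 0.21 (SE), with a 95% interval from -0.92 to 0.032 (edgeR adjusted p 0.797). Leaving out control replicate 2 gave -0.60, and leaving out control replicate 3 gave -0.27. DUSP10 (ENSG00000143507) spans 221701424 to 221742176 of chromosome 1, minus strand.

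DUSP16 had 56.8, 63.0 and 70.1 CPM with overexpression and 71.9, 68.1 and 72.1 CPM in the controls. Only overexpression replicate 3 reached into the control range. The log2 difference was -0.16 ± 0.10 (SE), with a 95% interval from -0.39 to 0.076 (edgeR adjusted p 0.797). DUSP16 (ENSG00000111266) spans 12474210 to 12562383 of chromosome 12, minus strand.

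MAPK14 encodes p38 alpha, a stress-activated kinase. In overexpression replicates 1 to 3 its level was 65.4, 25.7 and 65.4 CPM, and the controls had 32.8, 32.3 and 30.3 CPM, from 924, 360 and 810 counts against 355, 379 and 368. Overexpression replicates 1 and 3 were above all controls, whereas replicate 2 was below all of them. The coefficient of variation was 44.0% in the overexpression group and 4.14% in the controls. Among 9953 genes with a mean of at least 10 CPM, the median coefficients were 7.68% and 10.6%, and 2.71% of these genes had a highest overexpression value at least 2 times the lowest. Its log2 fold change over all libraries was 0.71 ± 0.31 (SE; edgeR adjusted p 0.797). It was 1.04 without overexpression replicate 2 (edgeR adjusted p 0.0330, where 0.104% of genes were called), and 0.52 without either of the other overexpression libraries. Whether MAPK14 was called therefore depended on overexpression replicate 2, while its log2 fold change stayed positive whichever library was left out.

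MAPK14 (ENSG00000112062) spans 36027677 to 36111236 of chromosome 6, plus strand. Its paralog MAPK13 lies 16573 bases away and was counted at under 4 CPM, with a log2 fold change of 0.53 and a standard error of 0.24 (edgeR adjusted p 0.797). No stretch of 31 bases of MAPK14 occurred in transcripts of another gene.

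MAPK3 encodes ERK1, a main kinase of the growth factor cascade. It was measured at 32.2, 31.3 and 34.6 CPM with overexpression and 38.8, 29.1 and 24.3 CPM in the controls. The controls spread on both sides of the overexpression libraries. The log2 difference was 0.092 ± 0.17 (SE), with a 95% interval from -0.29 to 0.47 (edgeR adjusted p 0.914), and it was -0.052 without control replicate 3 and 0.29 without control replicate 1. MAPK3 (ENSG00000102882) spans 30114105 to 30123506 of chromosome 16, minus strand.

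**Figure D2:**
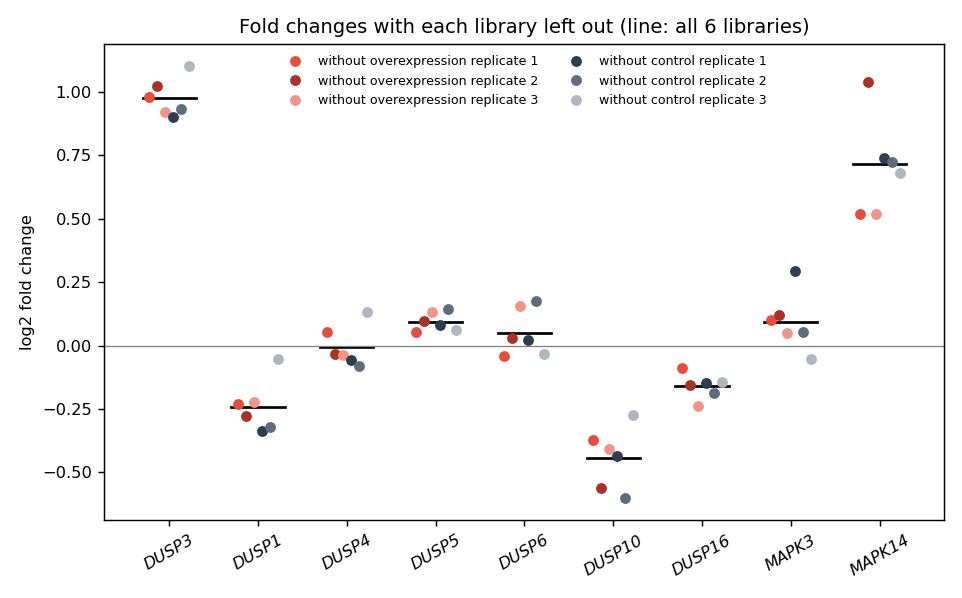
Log2 fold change (overexpression over control) of each gene in 6 fits that each left out a library (points) and with all 6 libraries (line). DUSP3 stays between 0.903 and 1.10, MAPK14 moves from 0.52 to 1.04, and DUSP4, DUSP6 and MAPK3 fall on both sides of 0.

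The wider families were read from lists of genes by role. Of 10 typical MAP kinase phosphatases, 9 were tested, 3 were higher and 6 lower, and 0 were called. Their median log2 difference was -0.075, against 0.0023 for all genes tested. DUSP9, which prefers ERK, had 402, 385 and 376 CPM with overexpression and 316, 361 and 360 CPM in the controls. Its groups did not overlap, but the log2 difference was 0.17 ± 0.088 (SE; edgeR adjusted p 0.797). DUSP8, directed at JNK and p38, did not overlap in the other direction (7.50, 9.28 and 8.48 against 11.8, 11.6 and 10.3 CPM), with a log2 fold change of -0.41 and a standard error of 0.15 (edgeR adjusted p 0.797). DUSP7 had -0.075 ± 0.13 (SE; edgeR adjusted p 0.907). DUSP2 was below the filter, with 13, 9 and 11 counts against 3, 7 and 5.

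Of 13 atypical dual-specificity phosphatases, 10 were tested. With DUSP3 counted in, 9 were higher and 1 lower with a median of 0.14. Of all 15055 genes tested, 7601 were higher and 7454 lower. Apart from DUSP3, which was selected on this difference, none had an unadjusted p under 0.05. DUSP12 followed with 0.26 and a standard error of 0.15 (edgeR adjusted p 0.797). DUSP22 was named after its values were seen: it had 20.3, 8.28 and 7.43 CPM with overexpression and 17.4, 16.3 and 16.0 CPM in the controls, a split within the overexpression group as in MAPK14, but with replicate 1 as the library apart. Its log2 fold change of -0.46 (edgeR adjusted p 0.806) became -1.07 without overexpression replicate 1.

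**Figure D3:**
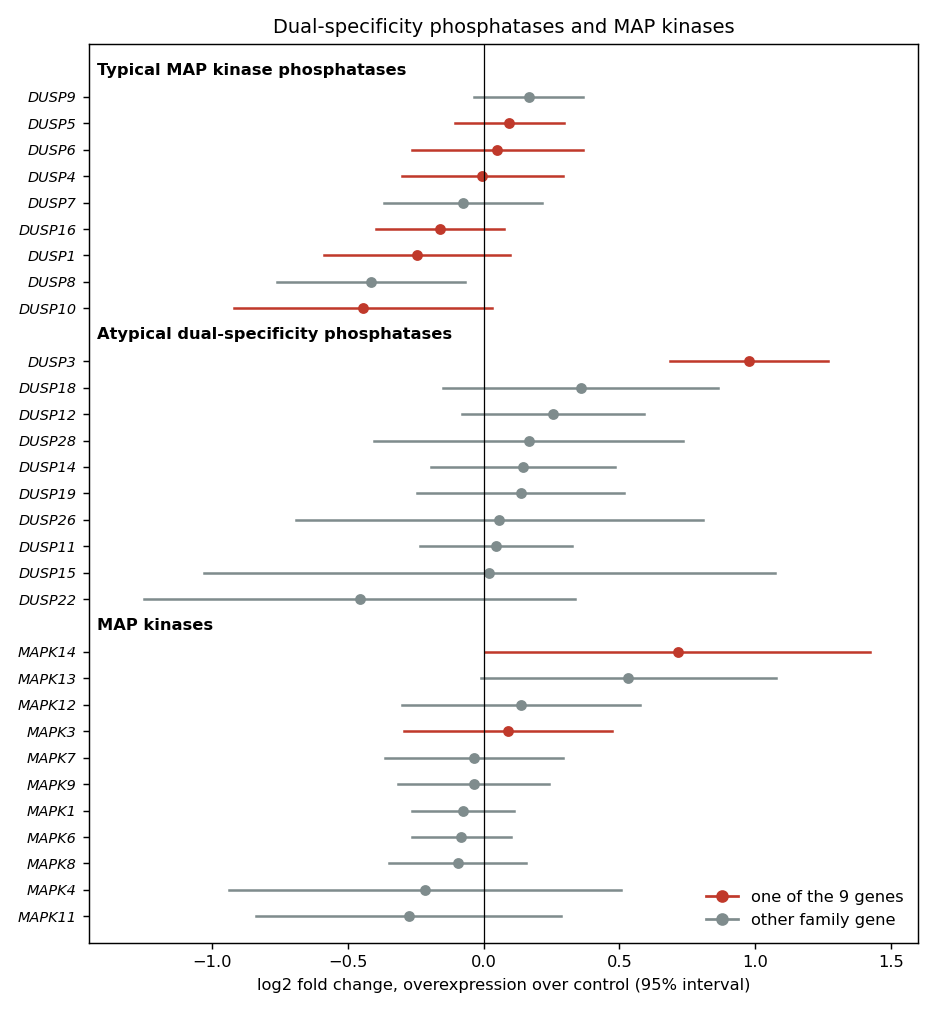
Log2 fold change (overexpression over control) with its 95% interval for all tested typical and atypical dual-specificity phosphatases and MAP kinases. Red marks the 9 genes. DUSP3, at 0.98, was chosen for this value. MAPK14 (0.71) has a wide interval, and DUSP5 (-0.11 to 0.29) a narrow one.

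Levels of different genes were compared per length, as CPM per kilobase of merged exons. In the controls the order was DUSP5 (66.4 ± 3.92), DUSP6 (52.5 ± 7.70), DUSP1 (23.7 ± 5.05), DUSP16 (12.4 ± 0.389), MAPK3 (8.37 ± 2.01), DUSP4 (6.78 ± 1.06), DUSP3 (6.53 ± 0.963), MAPK14 (4.63 ± 0.192) and DUSP10 (3.38 ± 0.762; SD, n = 3 each). The ranges of MAPK3 and DUSP4 overlapped, as did those of DUSP4 and DUSP3, and no other neighbours in this order did. The median of all genes with a length was 4.74, so 7 of the 9 had a control mean above it. With overexpression DUSP3 was at 12.9 ± 0.916 and moved from place 7 to place 4, next to DUSP16 at 11.1 ± 1.16, whose range it overlapped. This move restates the difference by which DUSP3 was chosen. In the deposited FPKM values MAPK3 and DUSP4 changed places, while the other 7 kept theirs. DUSP9 lay above all 9, at 124 ± 9.34 in the controls.

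**Figure D4:**
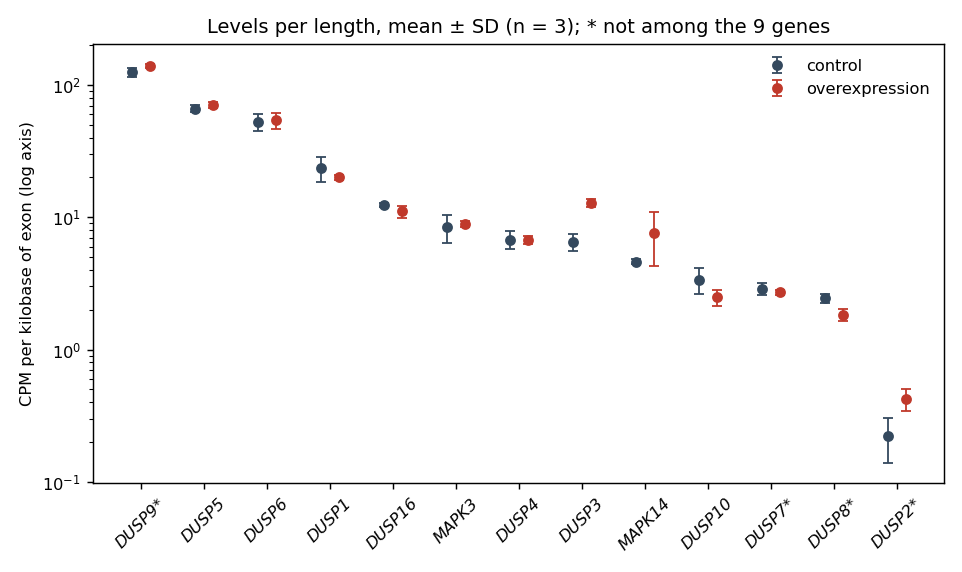
Mean expression per length (CPM per kilobase of merged exons, log axis) in control and overexpression libraries, with bars for the SD (n = 3). Genes run from the highest to the lowest control level, and asterisks mark typical phosphatases outside the set of 9. DUSP3 and MAPK14 have the widest gaps between groups among the 9, and DUSP2 lay below the filter on counts.

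DUSP3 encodes the shortest protein of the 9. Its longest coding transcript in GENCODE 29 encodes 185 residues, against 360 (MAPK14) to 665 (DUSP16) in the other 8 genes and a median of 478 over 12609 genes tested with a coding transcript. It has 555 coding bases but a 3′ UTR of 3488 bases, where the median 3′ UTR of those genes was 962 bases. In the set of 9, DUSP4 had a longer one (3962 bases). The AU-rich nonamer TTATTTATT, a type of element that shortens the life of many immediate early transcripts, occurred 2 times in the 3′ UTR of DUSP1 and 1 time in that of DUSP4, and was not found in the other 7. It was held by 7.79% of all 3′ UTRs, and by 4.28% and 16.7% of those within 20% of the lengths of DUSP1 and DUSP4. The shorter core ATTTA was more widely shared among the 9. It occurred 6 times each in DUSP3 and DUSP4, 5 times in DUSP16 and 4 times each in DUSP1 and MAPK14. DUSP10 had 3 and DUSP6 had 1, and its share over all 3′ UTRs was not counted. A match of letters describes the sequence and does not show a working element.

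The study examined circular RNAs in hepatocellular carcinoma. From luciferase reporter assays, Ago2 immunoprecipitation and a rescue experiment, among others, its authors concluded that hsa_circ_0098181 binds miR-18a-3p as a sponge. Matches to the seed of miR-18a-3p were searched in the 9 genes. The mature microRNA is shown from RefSeq (GRCh38.p14, chr13:91350797-91350819, plus strand) with its seed in capitals, followed by the 3′ UTR windows of 30 bases around the matches, from GENCODE 29 transcripts (GRCh38), with the letters that pair with the seed, AGGGCAG, in capitals.
hsa-miR-18a-3p: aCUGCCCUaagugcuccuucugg
DUSP10 (match at chr1:221701909-221701915, minus strand): aagagaagatcAGGGCAGcttaagtggtct
DUSP16 (match at chr12:12476616-12476622, minus strand): acaaaaatggaAGGGCAGatgctagaatcc
MAPK14 (match at chr6:36108689-36108695, plus strand): gtggatgctccAGGGCAGcctccaccttgc
MAPK3 (match at chr16:30114398-30114404, minus strand): caacctgctgaAGGGCAGaggtggagggtg

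A match was present 1 time each in 5 of the 9 genes, DUSP4 being the fifth, and in 16.1% of all 3′ UTRs. In UTRs within 20% of the same length the share was 12.5% for DUSP10, 24.8% for DUSP16, 26.1% for MAPK14, 11.6% for MAPK3 and 32.8% for DUSP4. DUSP3 had no match in any annotated 3′ UTR of its coding transcripts, against 29.2% of UTRs of like length with one. DUSP1, DUSP5 and DUSP6 had none either. The 5 genes with a match had log2 fold changes of -0.44 (DUSP10), -0.16 (DUSP16), 0.71 (MAPK14), 0.092 (MAPK3) and -0.0041 (DUSP4), of which none was called with all 6 libraries and MAPK14 was called only without overexpression replicate 2.

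The rest of the cascade was read from 9 further lists, and over all 11 lists 127 genes were named, of which 111 were tested. edgeR called none of them with all 6 libraries, while DESeq2 and edgeR without the filter on low counts each called 1, DUSP3. An unadjusted p under 0.05 was found for 10 of the 111 (4 higher, 6 lower), or 9.01%, and 18 (7 higher, 11 lower), or 16.2%, did not overlap between groups, beside 5.50% and 12.9% of all genes tested. DUSP3, selected on this contrast, is among both. The median of the 102 tested list genes outside the set of 9 was -0.0077.

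Upstream, the list of RAS and receptor input had 3 genes higher and 10 lower with a median of -0.11. EGFR, a receptor that feeds ERK and a reported substrate of DUSP3, had 304, 359 and 358 CPM with overexpression and 461, 365 and 404 CPM in the controls, without overlap. Its log2 difference was -0.27 ± 0.11 (SE; edgeR adjusted p 0.797). GAB1, an adaptor of receptors, had -0.24 ± 0.097 (SE; edgeR adjusted p 0.797). The median of this list was -0.026 without control replicate 1. Of 20 kinases at the top of the cascade 18 were tested, with 7 higher and 11 lower and a median of -0.025. MAP3K1 (-0.25, standard error 0.097) and TAOK1 (-0.30, standard error 0.14) had the lowest p, both with an edgeR adjusted p of 0.797. The 7 MAP kinase kinases had a median of 0.030, with MAP2K4 at -0.22 and MAP2K2 at 0.18 (edgeR adjusted p 0.797 each).

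At the level of the MAP kinases, 11 of 13 were tested, 4 were higher and 7 lower, and the median was -0.036. Among 8 tested kinases activated by them, with a median of -0.016, MKNK1, which phosphorylates a translation initiation factor, had -0.44 ± 0.16 (SE; edgeR adjusted p 0.797). MKNK1 was at -0.28 without control replicate 1 and at -0.58 without control replicate 3. MAPKAPK3, a target of p38, had -0.23 (edgeR adjusted p 0.797). The 12 tested inhibitors and scaffolds had a median of 0.0024. SPRY2, a feedback inhibitor of receptor signalling, was at 0.25 ± 0.091 (SE), and NF1, which turns RAS off, at -0.29 ± 0.14 (SE; edgeR adjusted p 0.797 each). With single libraries left out, SPRY2 ran from 0.19 to 0.28 and NF1 from -0.17 to -0.40. Both were smallest in size without control replicate 1. Of the other phosphatases that act on MAP kinases, 5 of 7 were tested with a median of 0.025, PPM1A being at -0.19 (edgeR adjusted p 0.805) and PPP2CA at 0.052 (edgeR adjusted p 0.912).

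Of 17 transcripts that ERK signalling is known to induce, 14 were tested. Their median was -0.00018, with 7 higher and 7 lower. EGR1, an immediate early transcription factor, had 16.1, 16.0 and 13.8 CPM with overexpression and 24.4, 19.1 and 17.8 CPM in the controls. Its log2 fold change was -0.41 ± 0.15 (SE; edgeR adjusted p 0.797). That value was -0.26 without control replicate 1, the control library that differed most, and -0.50 without control replicate 3. MYC had 2.69, 77.9 and 3.23 CPM against 2.77, 2.90 and 5.51 CPM. Only overexpression replicate 2 was high, the library in which MAPK14 was low. The fitted value of MYC, 2.90 (edgeR adjusted p 0.797), became -0.34 without that library. The list of 6 activators and substrates of DUSP3 had a median of 0.023, and STAT5B, a transcription factor reported as a substrate, was at 0.21 ± 0.099 (SE; edgeR adjusted p 0.797). This list was at -0.066 without overexpression replicate 2.

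**Figure D5:**
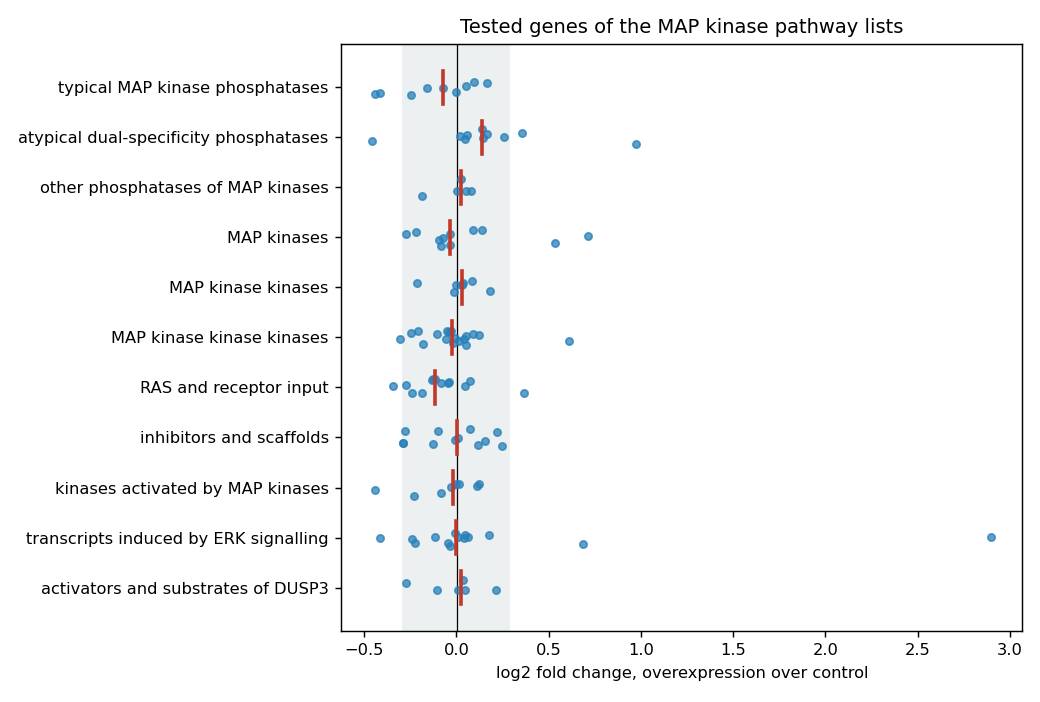
Log2 fold change (overexpression over control) of every tested gene in the 11 lists, with the list median in red. The grey band spans the 10th to the 90th percentile of all genes tested (-0.29 to 0.28) and the black line is their median. MYC (2.90, from a single library), DUSP3 (0.98) and MAPK14 (0.71) are the farthest to the right, other genes such as MAPK13 (0.53) and, to the left, DUSP22 (-0.46) and DUSP10 (-0.44) also lie outside the band, and the medians lie between -0.11 and 0.14.

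Genes that followed the pattern of DUSP3 most closely were sought over the 6 libraries among genes with a mean of at least 10 CPM. They were PASK (Pearson r 0.994), ANXA7 (0.991), TPMT (0.987), CENPH (0.972) and VPS28 (0.968) on log2 CPM. The 6 points share their libraries, and much of each r is the step between the groups that chose DUSP3. The log2 fold changes of these 5 genes were smaller, from 0.24 for TPMT to 0.47 for CENPH (edgeR adjusted p 0.797 each).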

How the data were processed

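RNA sequencing of total RNA from 6 Huh7 libraries was analysed, and sample titles gave groups and replicate numbers. In 1 table, the authors deposited whole-number read counts per gene and library, not normalized, and FPKM values whose length is not stated. The submitters' processing notes name TopHat2 2.0.9 and hg38. The counting tool, the use of strand and the annotation are not given in the sources used here. GENCODE 29 (GRCh38) served for exon lengths, 3′ UTRs (longest coding transcript) and strand. It held 98.5% of all deposited gene identifiers, and 94.8% of those had the same coordinates.

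Counts were tested across all genes with edgeR 4.0.16 under R 4.3.3 (low counts removed by filterByExpr at 10 counts, TMM, glmQLFit and glmQLFTest, group only, two-sided, Benjamini-Hochberg over 15055 genes, threshold 0.05). CPM used TMM library sizes. Intervals are 95% and standard errors were derived from the F statistic. FPKM served as an alternative for levels. The scripts were tested on simulated data. Within groups, library pairs differed by a chi-square of 10.1 to 20.9 per degree of freedom, so none was a copy.

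Alternatives were DESeq2 1.42.0, a replicate block, each library left out, no filter beyond 1 count in total, and scaling by RLE or the upper quartile. The named genes were the 9, the typical phosphatases DUSP2, DUSP7, DUSP8 and DUSP9, the 2 genes with the lowest p of each list, SOX5, the genes next to the threshold and the 5 most correlated with DUSP3. The members and lists were chosen with earlier results of these data known.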

Additional observations from a re-analysis of the deposited data

How the results depend on the processing

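The log2 fold change of DUSP3, which was chosen on this contrast, kept its direction under all alternatives. Its groups did not overlap, so leaving out a library could not have turned the direction. DUSP3 was past the threshold with DESeq2 (log2 fold change 0.97) and with no filter on low counts (0.98), and not under the others. Its log2 fold change ran from 0.903 to 1.10 when a library was left out. The number of genes called was 4 higher and 2 lower. DESeq2 called 8 higher and 20 lower. With one library left out, 1 to 7 were higher and 2 to 9 lower, the most without overexpression replicate 2, where 3 of 16 calls were among the 6 of the full data. Of the 127 pathway genes 111 were tested with all 6 libraries, and 0 were called. DESeq2 called 1, and edgeR with no filter called 1 (DUSP3 in both). When a library was left out, 0 to 1 were called (MAPK14 without overexpression replicate 2). The cause was not tested.

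Adding the replicate block left 2 genes called higher and 2 called lower. DUSP3 then had a log2 fold change of 0.98 and an adjusted p of 0.240. Same-numbered libraries did not deviate together, with correlations of -0.036, -0.023 and -0.031 across genes. Of the 6 libraries, 0 correlated best with their own number. At 3 libraries a group, these values cannot exclude that same-numbered libraries were prepared together, which the titles do not state.

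DUSP4, near 0, turned to 0.013 with upper-quartile normalization, 0.0035 with no filter and 0.0049 with a replicate block, and ran from -0.080 to 0.13 with single libraries left out. DUSP6 then ran from -0.040 to 0.17 and MAPK3 from -0.052 to 0.29. The other members kept their direction. At 3 libraries a group, the narrowest 95% interval of the fold among the 8 genes other than DUSP3 was 0.929 to 1.23, for DUSP5. The widest was 1.005 to 2.68, for MAPK14, which had an edgeR adjusted p of 0.797. These intervals are per gene and not adjusted for the number of genes tested. They give the range of folds compatible with the libraries for each gene, not the smallest difference that would be called.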
